A study of Homo sapiens with 24 samples.

Results

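The ligand, receptor and target genes of the TGF-beta pathway followed through every group of the study were the ligand genes TGFB1, TGFB2, TGFB3 and INHBA, the receptor genes TGFBR1 and TGFBR2, the inhibitor gene SMAD7, and the target genes TGFBI and NOX4. They were chosen by name from a list, with earlier results of these data known. All 9 were found among the 28907 gene symbols of the deposited table. The study sequenced RNA from A2780 and ES2, established human ovarian cancer cell lines that all carry the genotype label WT, in 8 groups of 3 libraries. Each line has a group with a control siRNA (called siCtrl here), a group in which VRK1, a nuclear serine/threonine kinase, was targeted by siRNA (siVRK1), a group with the solvent DMSO, and a group with luteolin, a plant flavone. The labels give neither doses nor times. Groups were read from the sample titles, because in the other label fields the number in the line's name and in the siRNA's name counts upward from library to library. In ES2 siVRK1 2 columns of the table have the same name, so those libraries are called a and b beside library 3.

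TGF-beta ligands are secreted in a latent form and, once released, bring together the type II receptor TGFBR2 and the type I receptor TGFBR1. The activated type I receptor phosphorylates SMAD2 and SMAD3, which enter the nucleus with SMAD4 and change transcription. SMAD7, itself induced by the pathway, blocks the type I receptor, and activins such as the dimer of the INHBA product signal through related receptors to the same SMADs. In epithelial cancers the pathway is known for both growth arrest and the production of matrix and mesenchymal proteins.

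Values are TPM summed per gene. They give a gene's share of each library's transcripts corrected for length, so that levels of different genes can be compared. The number of reads behind them is not known. VRK1, the targeted gene, was 53.6 to 55.2 TPM in A2780 siCtrl and 7.98 to 11.3 TPM in siVRK1, and 62.2 to 66.2 against 2.92 to 4.20 TPM in ES2, so that all 6 siVRK1 libraries matched their label. Libraries of 1 group correlated at 0.995 to 0.997 over genes. Of 10 markers of epithelial and ovarian carcinoma cells, 4 reached 1 TPM in A2780 (summed level 5.73 to 12.3 TPM over the libraries; KRT7, PAX8 and WT1 were at or near 0) and 5 in ES2 (636 to 992 TPM, mostly KRT7 and KRT18; MUC16 and FOLR1 were listed at 0), while the mesenchymal markers VIM, CDH2 and ZEB1 were present in both. Summed leukocyte markers stayed at or below 2.47 TPM in every library (CD3E was listed at 0), and summed fibroblast markers lay between 4.26 and 16.9 TPM. The labels call both lines ovarian cancer cells, and in A2780 few of these markers were present. Nothing in the labels says that libraries of a group are separate cultures, so each p-value reflects only how these libraries spread, which may be technical. In such bulk RNA, fewer cells of a type and less RNA per cell cannot be told apart.

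The windows just before the transcription start of the 4 ligand genes are shown because these genes split between the lines: TGFB2 and INHBA were expressed mainly in ES2 and TGFB3 mainly in A2780. Each is 250 bases, 5′ to 3′ on the gene's strand, from RefSeq (GRCh38.p14): TGFB1 at chr19:41353923-41354172 (minus strand), TGFB2 at chr1:218345086-218345335 (plus), TGFB3 at chr14:75981996-75982245 (minus) and INHBA at chr7:41703091-41703340 (minus). Capitals mark TATAAA, the TATA box, and ACGTCA, the core of the cAMP response element, searched on both strands.
TGFB1: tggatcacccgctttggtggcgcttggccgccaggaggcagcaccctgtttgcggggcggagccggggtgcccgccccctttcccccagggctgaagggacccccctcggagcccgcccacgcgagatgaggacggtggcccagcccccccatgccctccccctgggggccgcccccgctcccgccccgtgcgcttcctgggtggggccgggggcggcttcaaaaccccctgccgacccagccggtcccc
TGFB2: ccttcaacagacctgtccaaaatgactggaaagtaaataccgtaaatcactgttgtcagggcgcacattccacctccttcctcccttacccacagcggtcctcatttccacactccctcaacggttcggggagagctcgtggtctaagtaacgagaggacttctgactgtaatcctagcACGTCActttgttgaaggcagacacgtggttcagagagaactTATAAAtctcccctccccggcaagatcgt
TGFB3: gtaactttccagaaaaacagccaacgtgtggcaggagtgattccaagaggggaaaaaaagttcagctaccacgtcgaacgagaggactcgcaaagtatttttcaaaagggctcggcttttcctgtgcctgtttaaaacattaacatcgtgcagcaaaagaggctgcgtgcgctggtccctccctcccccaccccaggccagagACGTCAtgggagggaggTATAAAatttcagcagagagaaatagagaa
INHBA: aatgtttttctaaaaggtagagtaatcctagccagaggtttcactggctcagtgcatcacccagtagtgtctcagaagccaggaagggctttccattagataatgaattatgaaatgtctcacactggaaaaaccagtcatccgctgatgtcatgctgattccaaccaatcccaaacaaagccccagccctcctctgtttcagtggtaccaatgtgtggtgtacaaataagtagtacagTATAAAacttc
TATAAA began 29 bases before the RefSeq start in TGFB2, 30 before it in TGFB3 and 11 before it in INHBA, and had no match in TGFB1. ACGTCA began 71 bases before the start in TGFB2 and 47 before it in TGFB3. Of 35116 RefSeq windows of this length, 10.7% held TATAAA and 7.10% held ACGTCA. The TGFB1 window was 76.8% G and C, against a median of 58% over all windows and 42.8% for INHBA. The windows of the 5 other genes held neither sequence. The AP-1 site TGANTCA (6.57% of windows) and the palindrome GTCTAGAC bound by SMADs (0.182%) had no match in any of the 9, and the shorter SMAD sequence CAGACA (13.6%) had a match only in TGFB2. The most abundant transcript started 899 bases after the RefSeq start for TGFB2, 804 after it for TGFB3 and 11 after it for TGFB1. For INHBA it started 18 bases before the RefSeq start, so that the INHBA TATAAA began 7 bases inside that transcript and not before it. For SMAD7 the most abundant transcript started 1087 bases before the RefSeq start, so that the SMAD7 window lies after the start of that transcript. For TGFBI it started 29861 bases after the RefSeq start. The distances were 190 bases before it for NOX4, 99 before it for TGFBR2 and 37 after it for TGFBR1. A window without a match therefore need not cover the bases before the most abundant transcript. These matches describe the sequence and show no binding.

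**Figure D1:**
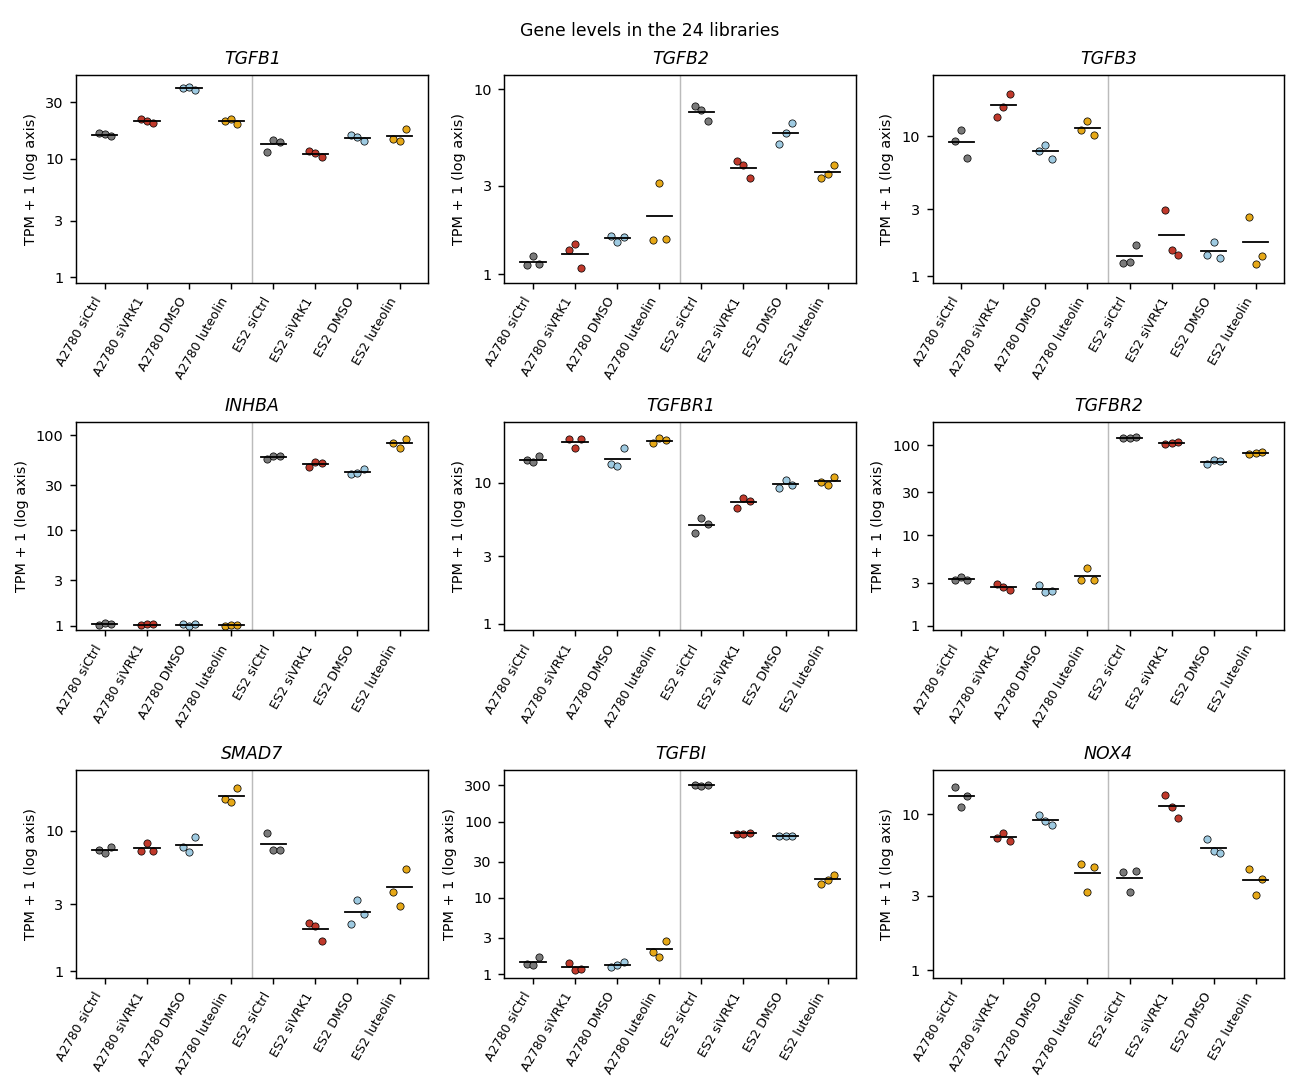
Each panel plots TPM + 1 on a log axis for 1 gene in the 8 groups, with a point for each of the 3 libraries and a bar at the group mean. TGFB2, INHBA, TGFBR2 and TGFBI are high in ES2 and TGFB3 in A2780, and TGFBI in ES2 falls from a mean of 297 TPM in siCtrl to 16.4 TPM in luteolin.

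The lines expressed different sets of these genes. TGFB2, INHBA and TGFBI entered the comparison of the lines only through their level in ES2, and TGFB3 only through its level in A2780, so that their difference between the controls (the siCtrl and DMSO groups of each line) was fixed by the filter and is given as a description. On the log2(TPM + 1) scale ES2 minus A2780 was 6.65 for TGFBI, 5.58 for INHBA, 2.28 for TGFB2 and −2.54 for TGFB3. The sizes depend on the pseudocount: with 0.1 in place of 1 they were 8.19, 8.55, 3.76 and −3.85, and with 5 they were 4.74, 3.40, 0.98 and −1.18. The order of TGFBI and INHBA turns with it. The ratio of mean TPM between the lines was 1506 in siCtrl and 1754 in DMSO for INHBA, which is near 0 in A2780, and 666 and 189 for TGFBI. The other 5 genes were at 1 TPM or more in A2780 and in ES2, apart from 1 ES2 library for SMAD7. Of these, TGFBR2 was higher in ES2 by 4.95 ± 0.07 (SE; limma, adjusted p = 6.00e-24), and 4 were lower by smaller amounts, from −1.16 ± 0.12 for NOX4 and −1.07 ± 0.07 for TGFBR1 to −0.83 ± 0.06 for TGFB1 and −0.73 ± 0.13 for SMAD7. These values average 2 unlike controls. SMAD7 was not lower in ES2 siCtrl, where its mean was 1.13 times that of A2780 siCtrl. In DMSO the A2780 mean of SMAD7 was 4.22 times that of ES2. The ratio of A2780 to ES2 in siCtrl and in DMSO was 4.10 and 1.60 for NOX4, 3.38 and 1.57 for TGFBR1, and 1.22 and 2.73 for TGFB1. Over all 14328 genes tested in this comparison 83.7% were called (34.3% higher and 49.4% lower in ES2), so that a call by itself says little here. The median over all genes was −0.17, which leaves SMAD7 at −0.57 and TGFB1 at −0.67 relative to it.

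TGFB1 (GRCh38, chromosome 19, 41301587 to 41353911) encodes the most widely expressed TGF-beta isoform. In A2780 it was 15.3, 15.1 and 14.4 TPM in siCtrl, 20.7, 19.8 and 18.9 in siVRK1, 38.5, 38.9 and 37.1 in DMSO, and 19.8, 20.6 and 18.8 in luteolin. The DMSO libraries were the highest and the siCtrl libraries the lowest, and the siVRK1 and luteolin libraries overlapped between them. TGFB1 rose with siVRK1 by 0.38 ± 0.06 on the log2 scale (limma, adjusted p = 0.000405), a 1.32-fold difference of means, and fell by 0.92 with luteolin (SE 0.06; limma, adjusted p = 7.58e-08), a 1.94-fold difference of means. The ES2 values were 10.5, 13.3 and 12.9 TPM in siCtrl, 10.5, 10.2 and 9.25 in siVRK1, 14.7, 14.2 and 13.0 in DMSO, and 13.7, 13.0 and 16.8 in luteolin. These ES2 groups lay close together and each overlapped its neighbour in level. The change with siVRK1 in ES2 was −0.26 ± 0.11 and did not pass the threshold (95% interval −0.50 to −0.03; limma, adjusted p = 0.0578), although it passed without ES2 siCtrl library 1 (−0.36, adjusted p = 0.0151), with median-of-ratios scaling (adjusted p = 0.0446) and in the fit of all 24 libraries (adjusted p = 0.0173). That with luteolin was 0.04 ± 0.11 (interval −0.19 to 0.28; adjusted p = 0.762). The coding transcript TGFB1-201 (2769 nt) held 77.7% or more of the TPM in every library.

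TGFB2 (chromosome 1, 218346235 to 218444619) encodes an isoform that depends on a co-receptor to bind TGFBR2 well. In A2780 it lay between 0.0839 and 0.604 TPM in the 9 libraries of siCtrl, siVRK1 and DMSO and was 0.527, 2.12 and 0.543 TPM in luteolin, and it was not tested there because fewer than 3 libraries reached 1 TPM. The ES2 libraries had 7.15, 6.67 and 5.70 TPM in siCtrl, 3.10, 2.90 and 2.32 in siVRK1, 4.04, 4.81 and 5.59 in DMSO, and 2.32, 2.49 and 2.87 in luteolin. Every siVRK1 and luteolin library was below every control library of ES2. TGFB2 fell by 0.99 with siVRK1 (SE 0.13; limma, adjusted p = 3.60e-05), a 2.35-fold difference of means. It fell by 0.70 with luteolin (SE 0.13; limma, adjusted p = 0.000775), a 1.88-fold difference.

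TGFB3 (chromosome 14, 75958099 to 75982991), the third TGF-beta isoform gene, showed the opposite line preference. In A2780 it was 8.22, 10.1 and 5.95 TPM in siCtrl, 12.7, 15.2 and 19.0 in siVRK1, 6.87, 7.66 and 5.89 in DMSO, and 9.99, 11.9 and 9.28 in luteolin. The siVRK1 libraries were above all others, and the luteolin libraries were above those of DMSO but overlapped siCtrl. TGFB3 rose by 0.88 ± 0.17 with siVRK1 (limma, adjusted p = 0.00154), a 1.93-fold difference of means. With luteolin it rose by 0.55 ± 0.17 (limma, adjusted p = 0.0149), 0.33 above the median gene, and it did not pass with median-of-ratios scaling (0.31, adjusted p = 0.176), with quantile normalization (0.14, adjusted p = 0.529) or in the fit of all 24 libraries (adjusted p = 0.0897). It did not pass either without A2780 luteolin library 2 (0.45, adjusted p = 0.0616) or without A2780 DMSO library 3 (0.46, adjusted p = 0.0559). In ES2 TGFB3 lay between 0.213 and 1.99 TPM, with 2 of 12 libraries at 1 TPM or more, and was not tested.

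INHBA (chromosome 7, 41667168 to 41705834) encodes the beta A subunit of inhibin and activin. In the 12 A2780 libraries it was at most 0.0704 TPM and was listed at 0 in 2. In ES2 it was 55.3, 59.1 and 59.1 TPM in siCtrl, 45.5, 51.9 and 50.7 in siVRK1, 38.0, 39.1 and 43.7 in DMSO, and 81.5, 71.9 and 90.4 in luteolin. The 4 groups did not overlap, with luteolin the highest and DMSO the lowest. INHBA rose by 0.99 ± 0.08 with luteolin (limma, adjusted p = 1.12e-06), a 2.02-fold difference of means. With siVRK1 it fell by 0.23 (SE 0.08; limma, adjusted p = 0.0334). That call depends on how the transcripts are summed. The long coding transcript INHBA-201 (6064 nt) was higher in siVRK1, 29.5 ± 1.7 against 23.5 ± 0.6 TPM in siCtrl (SD, n = 3), while the shorter INHBA-203 (1632 nt) was lower, 18.4 ± 1.6 against 28.8 ± 0.8 TPM. With transcripts weighted by their length the change with siVRK1 was 0.11 (limma, adjusted p = 0.157). The call was also lost with quantile normalization (−0.17, adjusted p = 0.0797), without a filter on low genes (adjusted p = 0.0697), without ES2 siVRK1 library a (−0.17, adjusted p = 0.131), without ES2 siCtrl library 2 (−0.21, adjusted p = 0.0879) and without ES2 siCtrl library 3 (−0.21, adjusted p = 0.0881).

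TGFBR1 (chromosome 9, 99104038 to 99154192) encodes the type I receptor kinase. In A2780 it was 13.4, 12.9 and 14.4 TPM in siCtrl, 19.2, 16.5 and 19.2 in siVRK1, 12.5, 12.2 and 16.6 in DMSO, and 18.0, 19.7 and 18.9 in luteolin. Both treated groups lay above their controls without overlap. TGFBR1 rose by 0.41 ± 0.11 with siVRK1 (limma, adjusted p = 0.00867). It rose by 0.44 ± 0.11 with luteolin (limma, adjusted p = 0.00279), 0.22 above the median gene, and did not pass with median-of-ratios scaling (0.19, adjusted p = 0.0727) or quantile normalization (0.15, adjusted p = 0.155). In ES2 it was 3.39, 4.57 and 4.08 TPM in siCtrl, 5.64, 6.76 and 6.38 in siVRK1, 8.22, 9.44 and 8.58 in DMSO, and 9.06, 8.63 and 9.94 in luteolin. The siCtrl libraries were the lowest of the line and siVRK1 lay between siCtrl and DMSO. TGFBR1 rose with siVRK1 by 0.54 ± 0.11 (limma, adjusted p = 0.000899), a 1.56-fold difference of means. The ES2 change with luteolin was 0.07 ± 0.11 (interval −0.16 to 0.30; limma, adjusted p = 0.632).

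TGFBR2 (chromosome 3, 30606502 to 30694142) encodes the type II receptor, which binds the ligand first. In A2780 it was 2.18, 2.44 and 2.22 TPM in siCtrl, 1.90, 1.69 and 1.49 in siVRK1, 1.81, 1.40 and 1.42 in DMSO, and 2.21, 3.37 and 2.20 in luteolin. All these levels are low, and luteolin library 2 was above the other 11. The luteolin change of 0.49 ± 0.14 passed (limma, adjusted p = 0.00989; 0.27 above the median gene) and was lost without that library (0.34, adjusted p = 0.0579) and with median-of-ratios scaling (0.32, adjusted p = 0.0598). With quantile normalization no change was left (0.0047, adjusted p = 0.979). The siVRK1 change was −0.29 ± 0.14, with groups that did not overlap, and did not pass (interval −0.60 to 0.03; adjusted p = 0.133), although it passed in the fit of all 24 libraries (adjusted p = 0.0184) and with transcripts weighted by length (−0.28, adjusted p = 0.0414). The length-weighted level of TGFBR2 holds only 2 of its 6 listed transcripts, those with a known length. In ES2 the gene was 119, 118 and 122 TPM in siCtrl, 101, 104 and 107 in siVRK1, 61.4, 67.8 and 64.8 in DMSO, and 78.1, 80.2 and 82.2 in luteolin. The 4 groups did not overlap. TGFBR2 fell by 0.20 with siVRK1 (SE 0.04; limma, adjusted p = 0.00175) and rose by 0.31 ± 0.04 with luteolin (adjusted p = 8.62e-05). The siVRK1 call was lost in the fit of all 24 libraries (adjusted p = 0.0903), and both changes were smaller than the gap between the 2 control groups of this line.

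SMAD7 (chromosome 18, 48919853 to 48952052) encodes the inhibitory SMAD. In A2780 it was 6.27, 5.95 and 6.62 TPM in siCtrl, 6.19, 7.20 and 6.22 in siVRK1, 6.71, 6.10 and 8.09 in DMSO, and 15.9, 15.1 and 19.1 in luteolin. Luteolin libraries were above all others, and the remaining 3 groups overlapped. SMAD7 rose by 1.15 ± 0.11 with luteolin (limma, adjusted p = 2.04e-06), 0.94 above the median gene and a 2.40-fold difference of means. The siVRK1 change was 0.05 ± 0.11 (interval −0.20 to 0.30; adjusted p = 0.769), and 0.22 with transcripts weighted by length (adjusted p = 0.0133). In ES2 SMAD7 was 8.63, 6.29 and 6.31 TPM in siCtrl, 1.22, 1.10 and 0.645 in siVRK1, 1.15, 2.22 and 1.57 in DMSO, and 2.65, 1.93 and 4.38 in luteolin. In ES2 the siCtrl libraries were the only ones whose range overlapped A2780. SMAD7 fell by 2.02 with siVRK1 (SE 0.23; limma, adjusted p = 9.09e-06), a 7.17-fold difference of means. The luteolin change was 0.56 ± 0.23 with overlapping groups and did not pass (interval 0.07 to 1.05; limma, adjusted p = 0.0563), although it passed without ES2 luteolin library 2 (0.76, adjusted p = 0.0167) and without ES2 DMSO library 2 (0.71, adjusted p = 0.0336). It also passed with median-of-ratios scaling (0.56, adjusted p = 0.0476), in the fit of all 24 libraries (adjusted p = 0.0183) and, at a larger size, with transcripts weighted by length (0.88, adjusted p = 0.000548). The coding transcript SMAD7-201 (4428 nt) followed the gene, at 3.97 TPM in ES2 siCtrl, 0.451 in siVRK1, 0.781 in DMSO and 1.92 in luteolin. A retained-intron transcript, SMAD7-202, held 12.3% to 51.7% of the gene in single libraries.

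TGFBI (chromosome 5, 136028895 to 136063818) encodes a secreted matrix protein that binds collagens and integrins and takes its name from its induction by TGF-beta. In A2780 it lay between 0.132 and 1.74 TPM and was not tested, with the highest values in luteolin (0.977, 0.677 and 1.74 TPM). ES2 had 303, 292 and 298 TPM in siCtrl, 68.9, 68.9 and 69.2 in siVRK1, 63.6, 63.0 and 64.3 in DMSO, and 14.3, 16.1 and 18.9 in luteolin. The 4 groups were far apart relative to their spread, except that siVRK1 and DMSO lay close together. TGFBI fell by 2.09 with siVRK1 (SE 0.07; limma, adjusted p = 3.35e-10), a 4.31-fold difference of means. It fell by 1.90 with luteolin (SE 0.07; limma, adjusted p = 1.45e-09), a 3.87-fold difference. Most of its TPM in ES2 siCtrl was assigned to transcripts that start inside the gene, led by the short TGFBI-207 (1034 nt; 125 ± 7.7 TPM in siCtrl, 31.0 ± 1.0 in siVRK1, 27.4 ± 0.3 in DMSO and 5.74 ± 1.8 in luteolin; SD, n = 3). The full-length TGFBI-201 (2804 nt) had the same order of siCtrl above the others, with 50.1 ± 3.2, 8.38 ± 1.2, 8.51 ± 1.0 and 4.26 ± 2.1 TPM.

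NOX4 (chromosome 11, 89324356 to 89498187) encodes an NADPH oxidase that releases hydrogen peroxide and is a known target of TGF-beta in mesenchymal cells. In A2780 it was 13.8, 10.1 and 12 TPM in siCtrl, 6.06, 6.56 and 5.71 in siVRK1, 8.91, 8.02 and 7.49 in DMSO, and 3.81, 2.16 and 3.58 in luteolin. Each treated group lay below its control without overlap. NOX4 fell by 0.86 with siVRK1 (SE 0.15; limma, adjusted p = 0.000762), a 1.96-fold difference of means. It fell by 1.15 with luteolin (SE 0.15; limma, adjusted p = 2.97e-05), −1.37 against the median gene, a 2.56-fold difference. In ES2 NOX4 was 3.24, 2.18 and 3.35 TPM in siCtrl, 12.2, 10.2 and 8.39 in siVRK1, 5.88, 4.77 and 4.64 in DMSO, and 3.43, 2.04 and 2.87 in luteolin. The siVRK1 libraries were the highest of the line. NOX4 rose by 1.52 ± 0.17 with siVRK1 (limma, adjusted p = 1.15e-05), a 3.51-fold difference of means, and fell by 0.70 with luteolin (SE 0.17; limma, adjusted p = 0.00537). The lines also differed in transcripts: NOX4-210 (2379 nt) held 24.8% to 37.4% of the gene in A2780 siCtrl and 0% to 7.79% in ES2 siCtrl, while NOX4-204 (560 nt), which covers a short stretch near the 5′ end of the gene, was the most abundant transcript in 7 of the 8 groups, all but A2780 siVRK1.

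**Figure D2:**
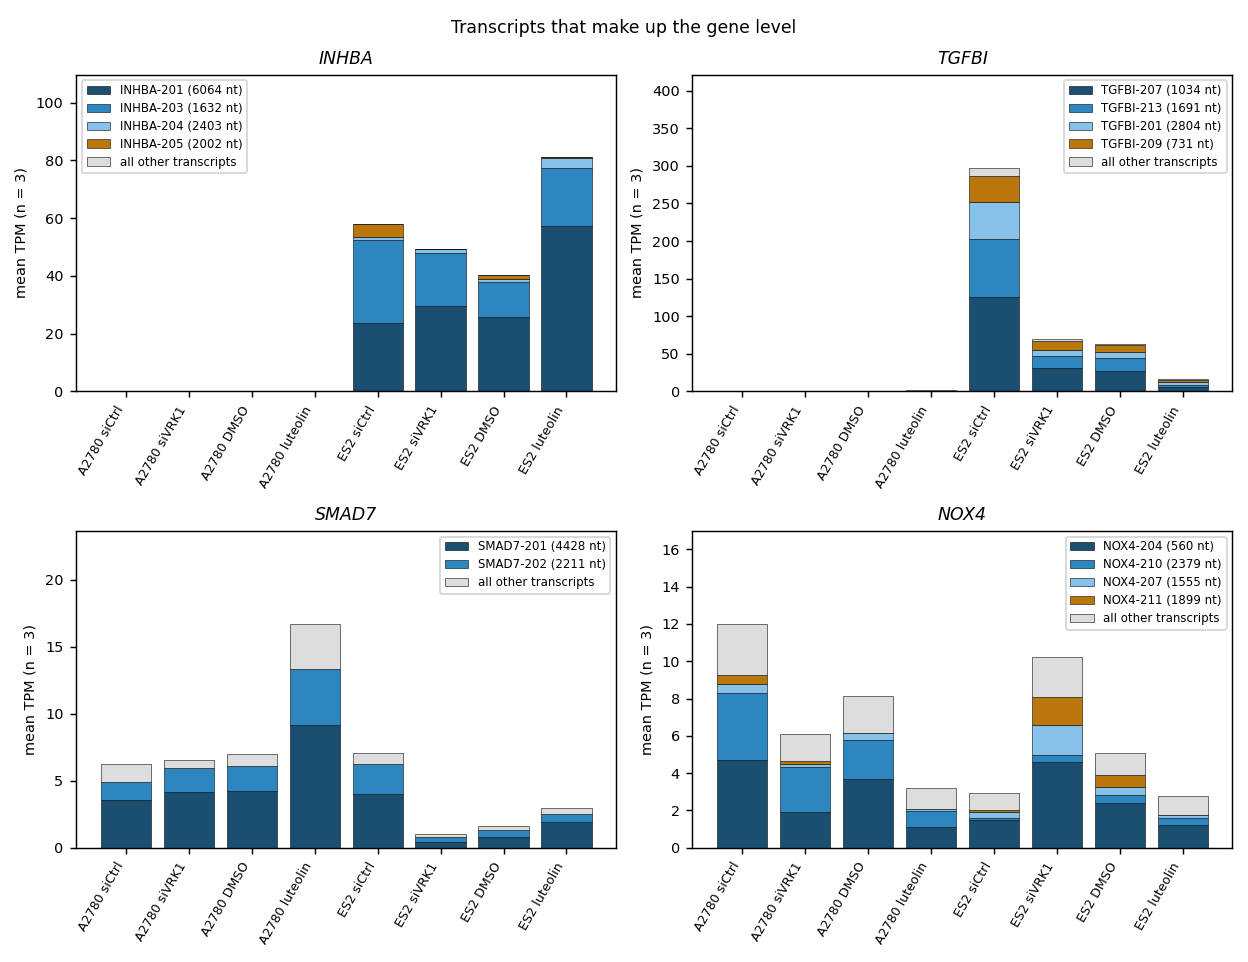
Stacked bars give the mean TPM (n = 3 libraries) of the leading transcripts of INHBA, TGFBI, SMAD7 and NOX4 in each group, with lengths in nucleotides (nt). In ES2 INHBA-201 is lowest in siCtrl (23.5 TPM) and highest in luteolin (57.2 TPM), whereas the short TGFBI-207 makes up the largest share of TGFBI.

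Read by treatment, with siVRK1 in A2780 3 of the 6 tested genes rose (TGFB1, TGFB3 and TGFBR1), NOX4 fell, and TGFBR2 and SMAD7 had no call. In that comparison 40.9% of all 13012 genes tested were called, 13.8% higher and 27% lower (1799 and 3519 genes, or 2643 and 2695 with median-of-ratios scaling). The groups did not overlap for 5 of the 6 genes, against 53.3% of all genes. With siVRK1 in ES2 5 of the 8 tested genes fell (TGFB2, INHBA, TGFBR2, SMAD7 and TGFBI), TGFBR1 and NOX4 rose, and TGFB1 had no call, against 54.8% of all genes called (26.8% higher and 28% lower). The groups did not overlap for 7 of the 8, against 63.1% of all genes. Every gene tested within a line was at 1 TPM or more in all 12 of its libraries, except SMAD7 in ES2 with 11. Marker sums moved with siVRK1 as well. The epithelial sum was 636 to 675 TPM in ES2 siVRK1 and 962 to 986 TPM in siCtrl, and in A2780 it was 7.16 to 8.88 against 10.8 to 12.3 TPM. The mesenchymal sum was 3092 to 3192 TPM in ES2 siVRK1 and 3868 to 3949 TPM in siCtrl, and 2513 to 2615 against 3173 to 3272 TPM in A2780. This sum is almost all VIM, at 2487 to 4007 TPM over the A2780 libraries and 3021 to 3891 TPM over those of ES2. The fibroblast sum was 5.16 to 6.46 against 6.93 to 8.96 TPM in ES2 and 11.8 to 14.1 against 15.4 to 16.9 TPM in A2780. The part of these markers in the results was not tested.

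With luteolin in A2780 4 of the 6 tested genes rose (TGFB3, TGFBR1, TGFBR2 and SMAD7), and TGFB1 and NOX4 fell. In this comparison 65.5% of all genes were called, 45.6% higher and 19.9% lower, and the groups did not overlap for 6 of the 6 genes, against 67.3% of all genes. The median over all genes was itself 0.22 higher in luteolin, so that the split of 5938 higher and 2585 lower genes became 3926 and 4515 with median-of-ratios scaling. With that scaling, SMAD7, TGFB1 and NOX4 kept their calls. The mesenchymal sum, which is almost all VIM in both lines, was 3803 to 4029 TPM in A2780 luteolin and 3013 to 3184 TPM in DMSO. With luteolin in ES2 INHBA and TGFBR2 rose and TGFB2, TGFBI and NOX4 fell of the 8 tested genes, against 48.4% of all genes called (22.6% higher and 25.8% lower). The groups did not overlap for these 5, against 54.4% of all genes. Of 5 endothelial markers CDH5 and, at up to 2.16 TPM, PECAM1 reached 1 TPM in ES2, and the sum of the 5 went from 36.2 to 40.0 TPM in DMSO to 9.79 to 10.8 TPM in luteolin (VWF and TEK were at or near 0). The epithelial sum was 952 to 992 TPM in DMSO and 705 to 775 TPM in luteolin, and the mesenchymal sum 3749 to 3825 and 3451 to 3676 TPM. The part of these marker lists in the results was not tested.

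**Figure D3:**
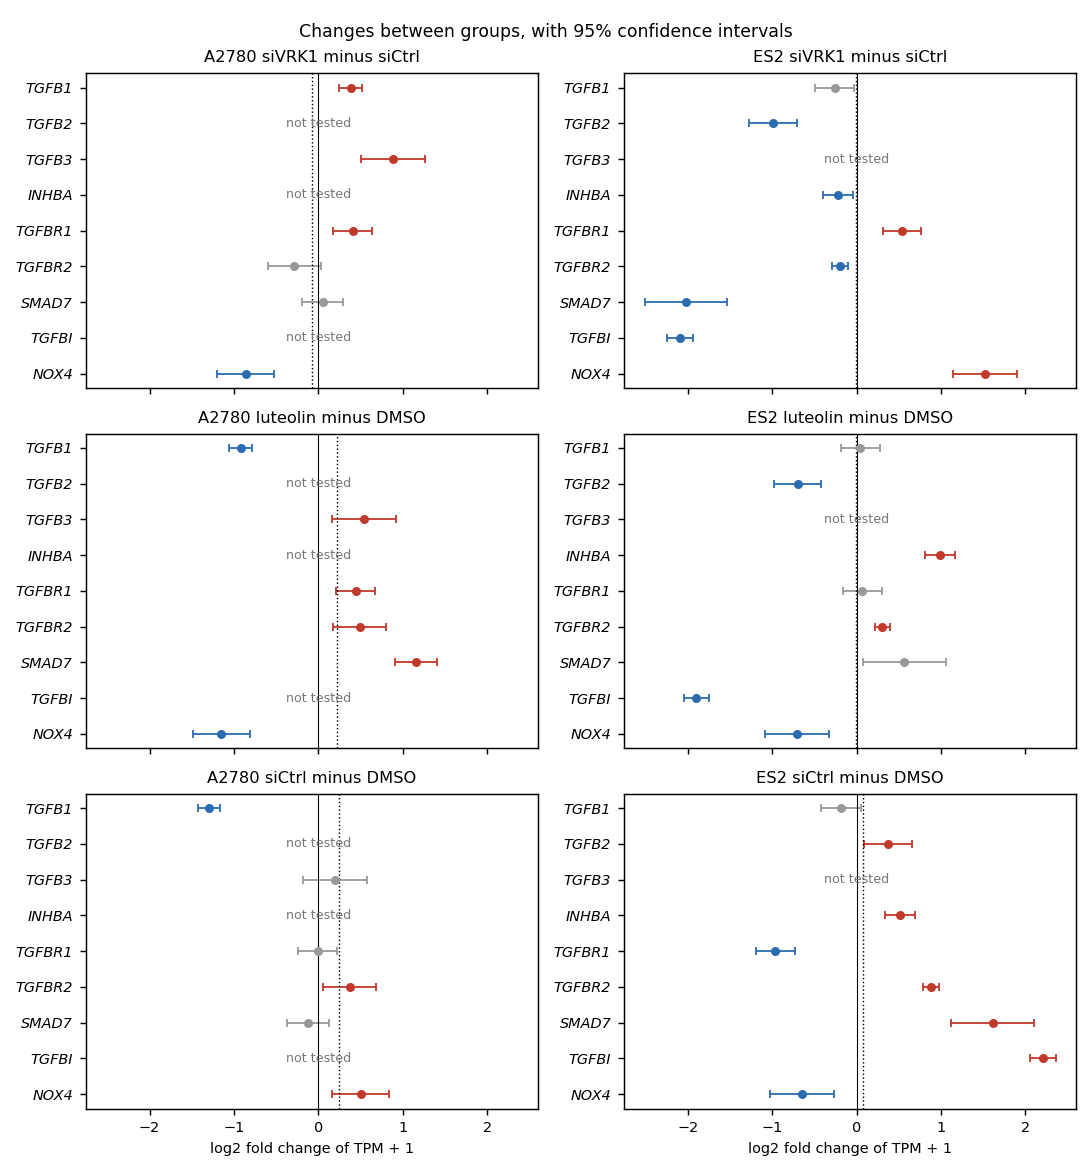
Points give log2 fold changes of TPM + 1 with 95% confidence intervals from limma (n = 3 libraries a group) for the treated groups against their controls and for the 2 controls of each line, red where higher, blue where lower and grey where not called. The dotted line is the median over all genes tested, and TGFBI and SMAD7 in ES2 show changes of opposite sign in siVRK1 against siCtrl (−2.09 and −2.02) and siCtrl against DMSO (2.21 and 1.62). Both comparisons use the same ES2 siCtrl libraries, with opposite sign.

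The responses of the lines were compared directly, as the ES2 change minus the A2780 change in a fit of all 24 libraries. Of the 5 genes expressed in both lines 3 differed for siVRK1, against 33.9% of all genes, 20.7% higher and 13.2% lower (2962 and 1897 genes, or 2241 and 2768 with median-of-ratios scaling). NOX4 was more positive in ES2 by 2.38 ± 0.24 (limma, adjusted p = 2.20e-07), having fallen in 1 line and risen in the other. SMAD7 was more negative in ES2, at −2.07 ± 0.26 (limma, adjusted p = 3.48e-06), and so was TGFB1, at −0.64 ± 0.12 (adjusted p = 0.000388). TGFBR1, which rose in both lines, differed by 0.13 ± 0.15 (interval −0.18 to 0.44; limma, adjusted p = 0.537), and by 0.31 with transcripts weighted by length (adjusted p = 0.0160). TGFBR2 did not pass either (0.09 ± 0.13, interval −0.19 to 0.37; limma, adjusted p = 0.642). For the other 4 genes 1 line is near 0. The difference joins the change of the other line to shifts among those low values, so that it is no test of a line-specific response. It was −1.87 for TGFBI, −1.13 for TGFB2 and −0.21 for INHBA. For TGFB3 it was −0.45 ± 0.39 (limma, adjusted p = 0.403), −0.52 with a pseudocount of 5 (adjusted p = 0.0252) and −0.87 with transcripts weighted by length (adjusted p = 0.000200).

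For luteolin 2 of the 5 genes expressed in both lines differed, against 50.5% of all genes, 14.7% higher and 35.8% lower, with a median over all genes of −0.20 (2104 and 5125 genes, or 3596 and 3488 with median-of-ratios scaling). TGFB1 was more positive in ES2 by 0.97 ± 0.12 (limma, adjusted p = 2.50e-06; 1.16 relative to the median), since it fell in A2780. TGFBR1 passed narrowly at −0.37 ± 0.15 (limma, adjusted p = 0.0431), was −0.18 relative to the median, and lost its call with median-of-ratios scaling (−0.17, adjusted p = 0.298), quantile normalization (−0.14, adjusted p = 0.398), transcripts weighted by length (−0.17, adjusted p = 0.162) and 3 further settings (adjusted p from 0.0617 to 0.0631). Left-out libraries also ended that call: without any 1 of 8 of the 12 libraries of this comparison it ranged up to an adjusted p of 0.120. SMAD7 differed by −0.59 ± 0.26 and did not pass (interval −1.14 to −0.04; adjusted p = 0.0673), but passed without A2780 DMSO library 3 (−0.69, adjusted p = 0.0445), ES2 DMSO library 1 (−0.73, adjusted p = 0.0305) or ES2 luteolin library 3 (−0.83, adjusted p = 0.00622), and with a pseudocount of 5 (−0.60, adjusted p = 0.00132). NOX4, lower with luteolin in both lines, differed by 0.45 ± 0.24 (interval −0.06 to 0.95; adjusted p = 0.133) and passed with median-of-ratios scaling (0.60, adjusted p = 0.0456), quantile normalization (0.79, adjusted p = 0.0118) and transcripts weighted by length (0.71, adjusted p = 0.000440). TGFBR2 was at −0.18 ± 0.13 (interval −0.46 to 0.10; limma, adjusted p = 0.268), quantile normalization turned its sign (0.39, adjusted p = 0.0138), and with transcripts weighted by length it was −0.30 (adjusted p = 0.0106). That length-weighted value rests on 2 of the 6 transcripts listed for TGFBR2. For the 4 genes near 0 in 1 line the difference again joins the change of the other line to shifts among low values. It was 1.01 for INHBA, −2.54 for TGFBI, −1.02 for TGFB2 and −0.41 for TGFB3 (−0.64 with transcripts weighted by length). In A2780 the mean of TGFBI was 0.336 TPM in DMSO and 1.13 TPM in luteolin. That of TGFB2 was 0.562 and 1.06 TPM, with luteolin library 2 at 2.12 TPM.

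The 2 control groups of each line, siCtrl and DMSO, were not alike for these genes. In ES2 7 of the 8 tested genes differed, against 56.2% of all genes, 34.7% higher and 21.5% lower in siCtrl (4339 and 2692 genes, or 3507 and 3336 with quantile normalization). TGFBI was 4.67-fold higher in siCtrl than in DMSO (log2 difference 2.21 ± 0.07; limma, adjusted p = 2.70e-10), SMAD7 4.29-fold (1.62 ± 0.23; adjusted p = 6.08e-05) and TGFBR2 1.85-fold (0.88 ± 0.04; adjusted p = 7.68e-09). INHBA and TGFB2 were also higher in siCtrl, by 0.51 ± 0.08 (limma, adjusted p = 0.000176) and 0.37 ± 0.13 (adjusted p = 0.0274). With transcripts weighted by length the INHBA difference did not pass (0.12, adjusted p = 0.115). The TGFB2 call was lost in the fit of all 24 libraries (adjusted p = 0.122), without a filter on low genes (adjusted p = 0.0554), and without ES2 siCtrl library 1 or 2 or ES2 DMSO library 1 or 2 (adjusted p from 0.0567 to 0.114). TGFBR1 was lower in siCtrl, at −0.96 ± 0.11 (limma, adjusted p = 8.01e-06), and NOX4 was lower, at −0.64 ± 0.17 (adjusted p = 0.00718). TGFB1 differed by −0.18 ± 0.11 and did not pass (interval −0.42 to 0.05; limma, adjusted p = 0.165), but passed with transcripts weighted by length (−0.25, adjusted p = 0.0306). The groups did not overlap for these 7 genes, against 63.2% of all genes. This comparison shares the siCtrl libraries with that of siVRK1 and the DMSO libraries with that of luteolin. Side by side, the ES2 levels of siVRK1 and DMSO were 69.0 ± 0.2 and 63.6 ± 0.7 TPM for TGFBI, and 0.987 ± 0.303 and 1.65 ± 0.54 TPM for SMAD7 (SD, n = 3).

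In A2780 3 of the 6 tested genes differed between siCtrl and DMSO, against 58.1% of all genes, 47.2% higher and 10.9% lower, with a median over all genes of 0.24 (6144 and 1412 genes, or 2954 and 3466 with median-of-ratios scaling). TGFB1 was lower in siCtrl at −1.30 ± 0.06 (limma, adjusted p = 3.64e-08), or −1.54 relative to the median, a 2.55-fold difference of means. NOX4 was higher in siCtrl by 0.50 ± 0.15 (limma, adjusted p = 0.0143) and TGFBR2 by 0.37 ± 0.14 (adjusted p = 0.0428). Neither passed with median-of-ratios scaling (0.25, adjusted p = 0.201, and 0.19, adjusted p = 0.259), and neither passed without A2780 siCtrl library 1 (adjusted p = 0.0661 and 0.0710). TGFBR2 also lost its call without A2780 siCtrl library 2 or 3 or A2780 DMSO library 2 or 3 (adjusted p from 0.0758 to 0.119). The groups did not overlap for these 3 genes, against 64.2% of all genes. TGFB3 (0.20 ± 0.17), TGFBR1 (−0.01 ± 0.11) and SMAD7 (−0.12 ± 0.11) did not pass (limma, adjusted p = 0.346, 0.963 and 0.372). With median-of-ratios scaling TGFBR1 (−0.26, adjusted p = 0.0292) and SMAD7 (−0.36, adjusted p = 0.0130) passed as lower in siCtrl, as they did with quantile normalization and with transcripts weighted by length.

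The order of the group levels differed from gene to gene. For TGFBI, INHBA, TGFBR2 and TGFB2 all 4 ES2 groups ranked above all 4 A2780 groups, and for TGFB3 and TGFBR1 all A2780 groups ranked above those of ES2. TGFBI, INHBA and TGFB2 passed the filter only through ES2 and TGFB3 only through A2780, so their rank between the lines is a description only. Of all genes 83.7% were called between the controls of the lines. TGFBI, INHBA and TGFBR2 had no overlap between neighbouring ES2 groups, whereas siVRK1 and luteolin overlapped for TGFB2. Pairs of ES2 groups did not overlap for 63.1% of all genes (siVRK1 and siCtrl), 54.4% (luteolin and DMSO) and 63.2% (siCtrl and DMSO). The share of all genes with every ES2 group apart is not given here. For TGFB1 A2780 DMSO stood alone at 38.2 ± 0.9 TPM (SD, n = 3), and from A2780 siCtrl downward each group overlapped the next. For SMAD7 A2780 luteolin stood alone at 16.7 ± 2.1 TPM, a run of 4 overlapping groups followed (ES2 siCtrl and the other 3 groups of A2780), and the other 3 groups of ES2 came last. NOX4 mixed the lines, with A2780 siCtrl (12 ± 1.8 TPM) and ES2 siVRK1 (10.3 ± 1.9 TPM) highest and overlapping, and ES2 luteolin lowest (2.78 ± 0.70 TPM).

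Another 101 genes of the pathway were taken from 6 lists: other ligands of the superfamily, genes of latency and activation, other receptors, SMADs and their partners, inhibitors, and target genes. With siVRK1 in A2780 20 of the 73 tested were higher and 17 lower (median 0.05, against −0.08 over all genes), where 13.8% of all genes were called higher and 27% lower. The listed genes were thus called higher in a larger share than all genes, and lower in a share near that of all genes. With median-of-ratios scaling the split of all 13012 genes was 2643 higher and 2695 lower. How the listed genes split with that scaling is not given here. The target genes split evenly, with 7 higher and 7 lower of 22. The matricellular gene CCN2 went from 19.7 to 102 TPM (log2 fold change 2.31 ± 0.08; limma, adjusted p = 1.14e-09) and the smooth muscle actin ACTA2 from 32.9 to 160 TPM (2.25 ± 0.06), while ID2 and ID1, inhibitors of helix-loop-helix factors, fell by 1.12 and 0.89. THBS1, whose protein activates latent TGF-beta, rose by 1.80 ± 0.12, and the integrin subunit ITGAV, which helps release the ligand, fell by 0.84. Of 11 SMADs and partners tested 2 were higher and 4 lower, with SMAD2 up by 0.46 ± 0.08 and SMAD1, a SMAD of the BMP branch, down at −1.04 ± 0.11. Of 7 other receptors tested none was higher and 3 were lower: the co-receptor TGFBR3 (−0.59 ± 0.12; limma, adjusted p = 0.00183), BMPR1A (−0.31 ± 0.11; adjusted p = 0.0360) and BMPR2 (−0.31 ± 0.10; adjusted p = 0.0222). With single libraries left out BMPR1A lost its call in 5 of 6 fits (adjusted p up to 0.138) and BMPR2 in 4 of 6 (up to 0.0943). Of 6 other ligands 2 were higher and none lower.

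With siVRK1 in ES2 23 of the 75 tested were higher and 29 lower (median −0.12, against −0.00 over all genes). Among target genes 15 of 24 were lower and 4 higher, with a median of −0.57, where 28% of all genes were called lower and 26.8% higher. The lipase inhibitor ANGPTL4 went from 10.7 to 1.16 TPM (−2.44 ± 0.18; limma, adjusted p = 2.86e-07) and the cell cycle inhibitor CDKN2B from 11.1 to 2.28 TPM (−1.89 ± 0.13). The cytokine IL11 went the other way, from 2.68 to 28.6 TPM (3.02 ± 0.29; limma, adjusted p = 2.47e-06), as did fibronectin FN1 (1.45 ± 0.06). Among the SMADs SMAD3 fell by 0.86 and SMAD1 by 1.62, while SMAD2 rose by 1.04 ± 0.06. Of 14 inhibitors tested 7 were higher and 2 lower, led by follistatin (FST), which binds activins, from 24.8 to 74.2 TPM (1.54 ± 0.05). Latency genes split, with 5 higher and 5 lower of 14, and the integrin subunit ITGAV fell from 18.8 to 5.53 TPM (−1.60 ± 0.08). Both IL11 and FN1 were higher in DMSO than in siCtrl (by 2.23 and 2.20, from siCtrl minus DMSO differences of −2.23 and −2.20), and ANGPTL4 and CDKN2B were lower in DMSO (differences of 2.53 and 2.32). With single libraries left out, siCtrl minus DMSO ranged from −1.82 to −1.76 for FST and from −0.78 to −0.70 for SMAD2. It ranged from 0.24 to 0.27 for SMAD3 and from 0.45 to 0.51 for SMAD1. These differences use the same siCtrl libraries as the siVRK1 comparison, with opposite sign.

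With luteolin in A2780 39 of the 73 tested were higher and 9 lower (median 0.32, or 0.10 relative to all genes), where 45.6% of all genes were called higher and 19.9% lower. Target genes were higher in 14 and lower in 3 of 22, with a median of 0.44 relative to all genes. CCN2 went from 6.94 to 65.0 TPM (3.05 ± 0.08; limma, adjusted p = 2.09e-11), ACTA2 from 25.5 to 131 TPM (2.32 ± 0.06) and THBS1 from 8.15 to 72.5 TPM (3.0 ± 0.12), while the matrix gene POSTN fell from 209 to 88.2 TPM. Of the SMADs and partners 9 of 11 were higher and 1 lower, with SMAD3 at 1.18 ± 0.13 and SMAD5 at 0.98 ± 0.13. The inhibitor SKIL, which represses SMAD complexes, rose by 0.92 ± 0.12. Latency genes were higher in 6 and lower in 1 of 12, and other receptors higher in 3 and lower in 1 of 7.

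With luteolin in ES2 24 of the 75 tested were higher and 20 lower (median 0.07). Target genes were higher in 15 and lower in 5 of 24 (median 0.88), where 22.6% of all genes were called higher and 25.8% lower. The immediate early factor JUNB went from 8.77 to 41 TPM (2.04 ± 0.20; limma, adjusted p = 5.40e-06) and ANGPTL4 from 1.02 to 6.73 TPM (1.90 ± 0.18). The collagen chain COL1A1 went from 115 to 13.0 TPM (−3.07 ± 0.13; limma, adjusted p = 5.47e-09) and the transglutaminase TGM2 from 311 to 135 TPM (−1.20 ± 0.04), and these fell as TGFBI did. No SMAD or partner was higher and 2 of 11 were lower (SMAD3, −0.38 ± 0.04, and SMAD1, −0.26 ± 0.10; limma, adjusted p = 0.0417). The SMAD1 call was lost without any 1 of the 6 libraries (adjusted p from 0.0594 to 0.119) and with transcripts weighted by length (−0.10, adjusted p = 0.278), in 11 of 18 alternatives in all. The co-receptor endoglin (ENG), which is also known as an endothelial protein, fell from 137 to 75.4 TPM (−0.86 ± 0.04), 1 of 3 lower and no higher genes among the 8 other receptors tested. Of 4 other ligands tested 2 were higher, BMP2 and BMP6.

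**Figure D4:**
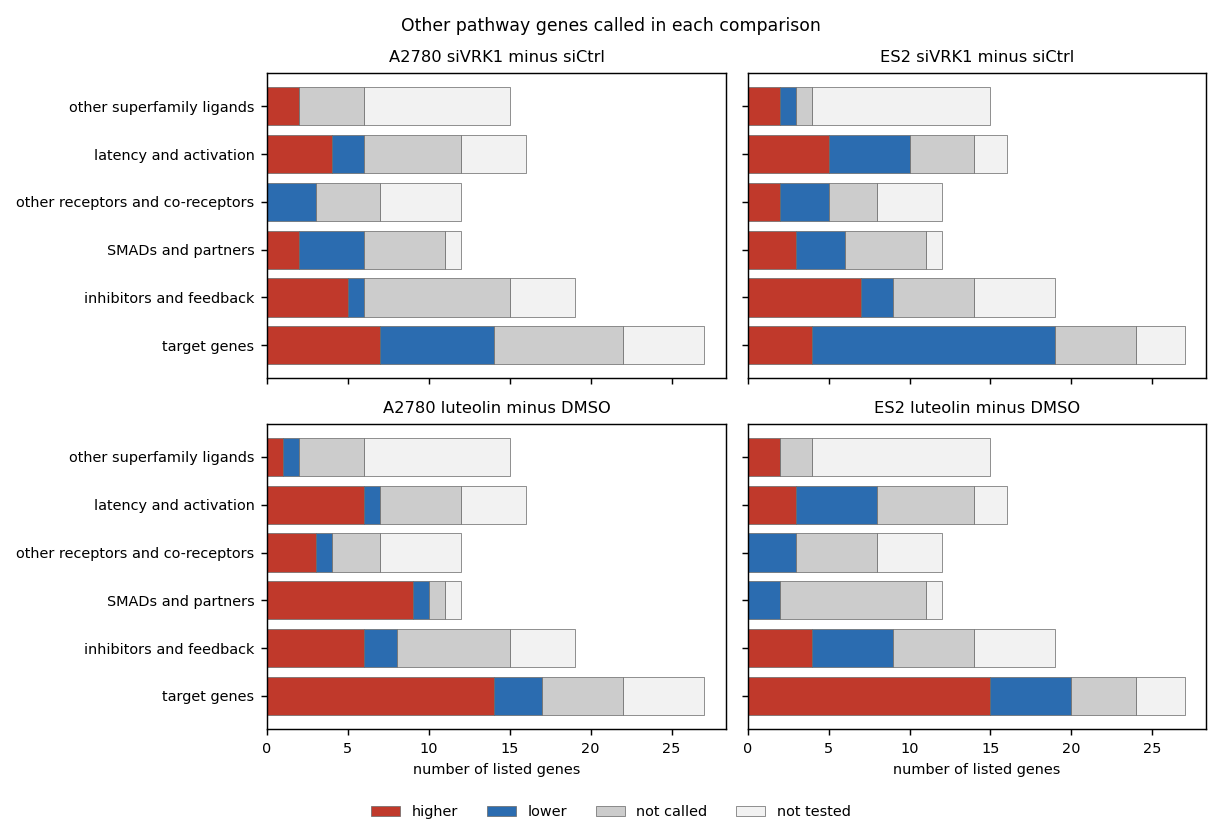
Bars give the number of listed pathway genes that were called higher (red), called lower (blue), not called (grey) or not tested (near white) in the 4 treatment comparisons, by list (limma, adjusted p under 0.05). In ES2 the target genes are mostly lower with siVRK1 (15 of 24 tested) and mostly higher with luteolin (15 of 24).

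For each of the 9 genes the 3 genes with the most similar pattern were found among 11578 genes, by Pearson correlation over the 24 libraries after each library was centred on its line. The points share library, line and treatment, so that these values are descriptions and carry no test. INHBA was at most 0.0704 TPM in A2780, so that its values describe the ES2 groups. TGFBI and TGFB2 were also low in A2780, and TGFB3 in ES2, so that levels with an unknown counting error enter their values. TGFBI was followed most closely by CD109 (r = 0.97), CTNNBIP1 (0.97) and PHLDB2 (0.96), and SMAD7 by SOCS1 (0.93), MIDN (0.93) and CHST2 (0.92). INHBA had the tRNA synthetase genes YARS1 (0.93), GARS1 (0.93) and MARS1 (0.92) beside it. TGFBR1 was most like TWSG1 (0.93), SDC3 (0.93) and SNN (0.92), and TGFBR2 most like CAPN2 (0.91), PLEKHA1 (0.91) and AAR2 (0.91). NOX4 had ESPL1 (0.91), MCM2 (0.90) and SIPA1 (0.90), and TGFB1 had RRAS (0.89), RTBDN (0.88) and EFHD1 (0.88). The closest genes were less similar for TGFB2 (CARD10, 0.84; RHOF, 0.79; SCD, 0.78) and TGFB3 (LRPAP1, 0.75; SYT5, 0.74; TXNIP, 0.70). Among the 9 genes themselves the highest value was 0.65, for TGFB2 and TGFBI, and the lowest was −0.74, for SMAD7 and NOX4.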

How the data were processed

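Total RNA of 24 libraries was sequenced. Per the submitters' processing notes, reads were handled with FastQC and kallisto against hg19, with no versions stated. The authors deposited TPM per transcript, 193845 lines in all. Identical repeated lines (1958) were counted once, 9542 transcripts without a symbol (0.514% to 1.03% of the TPM) were left out, and the rest were summed per symbol. GENCODE 29 gave the GRCh38 coordinates, which serve as annotation only, and the transcript lengths. It held 2 of the 6 transcripts listed for TGFBR2.

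TPM are not counts, so log2(TPM + 1) was tested with limma 3.58.1 (R 4.3.3; eBayes with trend, two-sided, Benjamini-Hochberg over all genes tested, threshold 0.05), on genes with at least 1 TPM in 3 or more libraries of the fit. Comparisons within a line used its 12 libraries, and differences between lines all 24. Fold changes on this scale understate those of low genes. Errors are SE unless marked SD. The fit was also run on simulated data with independent noise. Far fewer genes changed there than were called here, so that the run gives no error rate for these data.

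All 9 genes are named in every comparison. Of each other list, up to 2 called rises and 2 called falls per comparison with at least 5 TPM and no overlap were eligible. Some of these are named. TGFBR3 with siVRK1 in A2780 was not eligible by this rule and is named to complete the count of lower receptors. Genes and lists were chosen with earlier results of these data known. Alternatives were other pseudocounts (0.1 and 5), no filter or 5 TPM, quantile normalization, median-of-ratios scaling, a robust prior, fits of only the groups compared or of all 24 libraries, a replicate block and leaving out each library. A gene level weighted by transcript length was added after seeing the data.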

Additional observations from a re-analysis of the deposited data

Results flagged for a closer look

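Responses that differed between the lines by the direct test (ES2 minus A2780, log2 scale, limma) are listed here. Among the 5 genes expressed in both lines these were, for siVRK1, NOX4 (2.38, adjusted p = 2.20e-07), SMAD7 (−2.07, adjusted p = 3.48e-06) and TGFB1 (−0.64, adjusted p = 0.000388). NOX4 was lower in 3 of 3 siVRK1 libraries of A2780 and higher in 3 of 3 of ES2 than every library of the matching control. These groups did not overlap for 53.3% of all genes in A2780 and 63.1% in ES2. For luteolin the responses that differed were TGFB1 (0.97, adjusted p = 2.50e-06) and TGFBR1 (−0.37, adjusted p = 0.0431). The TGFBR1 call was lost in 14 of 23 alternatives, among them median-of-ratios scaling (limma, adjusted p = 0.298). Of all genes, the direct test called 33.9% for siVRK1 and 50.5% for luteolin. The same test passed for genes near 0 in A2780. There the value joins the change in ES2 to shifts among low A2780 values and is no test of a line-specific response. These were TGFBI (−1.87) and TGFB2 (−1.13) for siVRK1, and TGFBI (−2.54), TGFB2 (−1.02) and INHBA (1.01) for luteolin. In A2780 TGFBI, TGFB2 and INHBA were at most 1.74, 2.12 and 0.0704 TPM.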

How the results depend on the processing

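Over 69 changes of the 9 genes and 1356 alternative values, 1260 kept direction and side of the threshold, 50 lost the call, 30 gained it and 16 changed sign; 42 of the 69 held under every alternative run. The number of the 9 genes called fell from 6 to 3 for luteolin in A2780 with median-of-ratios scaling and also to 3 with quantile normalization, both of which remove the higher median of that comparison. For A2780 siCtrl against DMSO it went from 3 to 6 with the length-weighted level and to between 1 and 3 with a library left out. With the length-weighted level these signs changed: INHBA with siVRK1 in ES2 (0.11) and in the difference between lines (0.094), TGFB3 in A2780 siCtrl against DMSO (−0.092), and ACVR1 in the luteolin difference (0.028). With quantile normalization they were BMPR2 with luteolin in A2780 (−0.12), TGFBR1 in the siVRK1 difference (−0.018), TGFBR2 in the luteolin difference (0.39, adjusted p = 0.0138) and TGFB3 in A2780 siCtrl against DMSO (−0.12; −0.041 with median-of-ratios scaling). With a pseudocount of 5 they were TGFBR1 (−0.0061) and TGFBR2 (−0.069) in the siVRK1 difference and TGFBR2 in the luteolin difference (0.078). With single libraries left out, SMAD7 with siVRK1 in A2780 ranged from −0.013 to 0.082, TGFB1 with luteolin in ES2 from −0.061 to 0.11 and TGFBR1 in A2780 siCtrl against DMSO from −0.081 to 0.12. The cause of these sign changes was not tested.

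The deviations of same-numbered libraries correlated at r from −0.053 to 0.041 over 16 pairs. ES2 siVRK1 libraries a and b, which have no known number, are not among these pairs. Whether same-numbered libraries share a culture or a batch was not tested. With a replicate block the 9 genes kept 119 of 120 results; TGFBR2 in A2780 siCtrl against DMSO lost its call (adjusted p = 0.0523), leaving 2 genes called there. Genes called over the whole table with the block were 0.949 to 0.999 times those without it.

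The read depth is not known, so levels under 1 TPM carry an unknown counting error.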
